A study of Mus musculus with 360 samples.

Results

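The Reprogrammed Hair Cells cluster, number 2 of 9 in the authors' deposited annotation, held 51 of the 360 single cells of the study. Its members were taken from that annotation as given, and all 51 came from the 180 GAP cells, of which they made up 28.3% (exact 95% interval 21.9 to 35.5). Both genotypes carried Fbxo2CreERT2, in which the Fbxo2 locus expresses a Cre that tamoxifen activates, together with the Rosa26-tdTomato reporter. The control genotype was Fbxo2CreERT2::Rosa26-tdTomato, and GAP mice, Fbxo2CreERT2::Rosa26-tdTomato::Rosa26-GAP, also carried an allele for Gfi1, Atoh1 and Pou4f3. Both received tamoxifen at 3 weeks of age, and cochlear cells were dissociated with papain and harvested at 5 weeks, sorted singly on tdTomato and EpCAM fluorescence and made into libraries with SMART-MATQ. No animals are named in the labels, each genotype is therefore 1 sample, and cells are not replicates. The clusters were made from the counts of these cells, so every level below describes the cluster, with no test and no p-value.

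Hair cells are the sound receptors of the cochlea. They carry a bundle of actin-filled stereocilia whose tip links pull open mechanotransduction channels, and they release glutamate from ribbon synapses when voltage-gated calcium channels open. Mature mammals do not replace lost hair cells, and the transcription factors Atoh1, Gfi1 and Pou4f3 act in their formation, maturation and survival. The supporting cells and sulcus cells around them hold the epithelium together and secrete the tectorial membrane. The Cre line acts in such non-sensory cells, and the study asks how far they take on a hair cell state.

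The values are unique molecular identifiers (UMIs), counts of tagged molecules per gene and cell. A cell of the cluster held 11514 to 44672 UMIs with a median of 28271, and 3014 to 6044 genes with a median of 4825. The remaining GAP cells had a median of 29857 UMIs and the 180 control cells 21280. Levels below are CPM, the UMIs of a gene in a set of cells scaled to the total of that set and not corrected for gene length, so levels are compared between sets of cells and not between genes. Intervals are exact 95% intervals and cover counting error only, not variation between cells or animals. Titles place GAP cells under the letters C and D, which the labels do not explain. The cluster held 20 of the 92 letter C cells (21.7%, 13.8 to 31.6) and 31 of the 88 letter D cells (35.2%, 25.3 to 46.1). Control cells carry other letters, so letter and genotype cannot be told apart. A gene with no UMI is called listed at 0: Rpl13, Cox4i1 and mt-Co2, genes of the ribosome and the respiratory chain, were also at 0 in these 51 cells, so a 0 need not mean that a transcript is missing.

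One letter C cell stood apart from the other 50. It carried 74481 CPM of the mucosal list, genes of secretory airway and middle ear lining, where the next highest cell of the cluster had 1582 CPM and the median of the other cells was 487 CPM. It held 432 UMIs of the mucin Muc5b, 314 of the antimicrobial lectin Reg3g and 663 of the secreted protein Bpifa1, against 15, 20 and 555 in the other 50 cells together. The same cell had 2 UMIs of Atoh1, 2 of Pou4f3 and 1 of Rasd2, and 0 of Myo7a, Otof, Tmc1 and Epyc. It stays in the values below. Without it 3 of the named genes at 2-fold or more turned direction, Muc5b, Reg3g and Muc16. No doublet caller was run.

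Each of the 4 genes chosen to mark the cluster was higher in it than in any other cluster, but they were spread over its cells very unequally. Rasd2, a small Ras-like GTPase (mm10 chr8:75213944-75224113), was found in 50 cells. Its level per cell ran from 0 CPM through a median of 659 to 2941 CPM. Pooled, it was at 847 CPM against 431 CPM in the other GAP cells, a ratio of 1.97 (1.83 to 2.12), and it had a UMI in 4 control cells. Rasd2 was therefore nearly general in the cluster and also frequent outside it, in 88.4% of the other GAP cells. Myo7a, the motor protein of the upper tip link (chr7:98051060-98119524), was found in 40 cells, with a median of 201 and a highest cell of 1496 CPM. It was at 452 against 128.8 CPM, a ratio of 3.51 (3.12 to 3.95). With the control level at 23.5 CPM in 31 of 180 cells, Myo7a was the only marker of the 4 with more than 4 control cells.

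Otof and Tmc1 were carried by a minority of the cluster. Otof, the calcium sensor of vesicle release at hair cell synapses (chr5:30367062-30461932), had a UMI in 22 cells, was at 0 in the median cell and reached 2956 CPM in the highest. Its pooled 266 CPM was 3.79 times the 70.1 CPM of the other GAP cells (3.24 to 4.44), and 5 cells held 66.4% of its UMIs. An even spread would put 9.80% in 5 cells. Tmc1, a pore-forming subunit of the transduction channel (chr19:20783458-20954202), had a UMI in 23 cells, a median of 0 and a highest cell of 1022 CPM. It was at 89.3 against 20.9 CPM, a ratio of 4.27 (3.21 to 5.7), with 73.6% of the UMIs in 5 cells. In control cells Otof had 0 UMIs and Tmc1 was found in 4 cells.

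Counting the 4 markers in each cell, 15 cells of the cluster had a UMI of all 4, 11 of 3, 17 of 2, 8 of 1 and none of 0. Among the other GAP cells 13 (10.1%) had all 4, and among control cells 0 of 180 did, which allows up to 1.67%. All 4 markers were together in 29.4% of the cluster, and 25 of the 51 cells had 2 of the markers or fewer. When every cell was thinned to 8000 UMIs, which left out 3 control cells, the share with a UMI was 86.3% for Rasd2, 72.5% for Myo7a, 31.4% for Otof and 25.5% for Tmc1 in the cluster. In the other GAP cells the shares were 70.5%, 30.2%, 21.7% and 7.75%, and in control cells 0%, 9.6%, 0% and 1.13%. The 17 GAP cells that the annotation leaves without a cluster, with 42346 to 60218 UMIs each, count among the other GAP cells, and 6 of them (35.3%) had all 4 markers, so the cluster was not the only set rich in them.

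**Figure D1:**
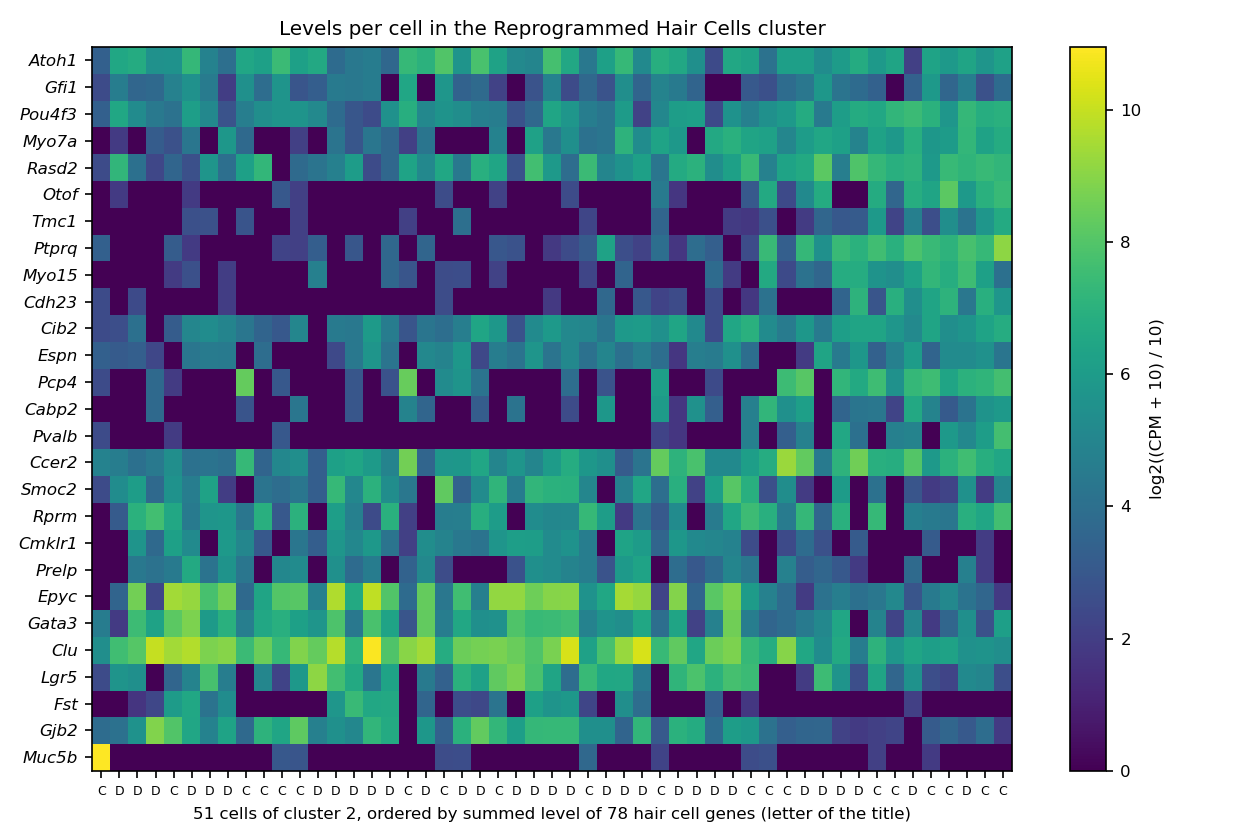
Level of 27 genes (rows, log2((CPM + 10) / 10)) in each of the 51 cells of cluster 2 (columns, ordered by the summed level of 78 hair cell genes and marked with the letter of the title). Otof, Tmc1, Ptprq, Myo15 and Cdh23 fill the right end, Atoh1, Pou4f3 and Rasd2 run across nearly all cells, Epyc, Gata3 and Clu are brighter on the left, and Muc5b is high in 1 cell.

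The 3 genes of the GAP allele were at about the level of the other GAP cells. Atoh1 was found in all 51 cells, from 31.6 through a median of 728 to 2493 CPM, and pooled at 815 against 802 CPM, a ratio of 1.02 (0.949 to 1.09). Pou4f3 was also in all 51 cells, from 35.3 through 437 to 1740.1 CPM, with a ratio of 1.04 (0.964 to 1.13). Gfi1 was in 45 cells at a median of 122.8 CPM, with a ratio of 0.914 (0.794 to 1.05). All 3 intervals include 1, but they cover counting error only and are no test of equal levels. The other GAP cells are also a mixed set of clusters. As a mean over cells the log2 ratios were 0.12 for Atoh1, 0.21 for Pou4f3 and 0.03 for Gfi1, and that of Pou4f3 was outside its counting interval. A count over exons can come from the allele or from the endogenous gene. All 3 were lower than in cluster 1, the cluster most like this one, where Atoh1 was at 1097, Pou4f3 at 749 and Gfi1 at 285 CPM (ratios of 0.743, 0.803 and 0.669). Fbxo2, whose locus drives the Cre, was at 556 CPM against 356 in the other GAP cells, a ratio of 1.56 (1.43 to 1.7), and at 696 CPM in control cells. Epcam, the sorted surface protein, had a ratio of 1.09 (0.942 to 1.25).

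Across all genes the cluster was set against all other GAP cells, which share its genotype and letters. Of 10352 genes at 10 CPM or more in either set, 892 (8.62%) were at least 2-fold higher in the cluster and 1106 (10.7%) at least 2-fold lower. Requiring both letters to go the same way left 728 (7.03%) and 1064 (10.3%). These counts used the ratio of pooled CPM. The median log2 ratio over all measured genes, taken on log2(CPM + 1), was 0.01. Counts of measured list members against the other GAP cells below stand beside these 8.62% higher and 10.7% lower over all genes. Of the genes on 7 hair cell lists, 86 were at 10 CPM or more in the cluster. Of these, 39 were at least 2-fold higher than in the other GAP cells. A choice by the level in the cluster alone leaves out list genes that are low there. No share over all genes was taken with that choice, so the 39 cannot be set against the 8.62%. The cluster was the highest of the 9 clusters for 52 of the 86, where the share over all genes at that level was 15.1% (1442 of 9534). Of the 86, 40 had a UMI in 26 or more of the 51 cells. The same share over all 9534 genes was not counted, so this does not show whether hair cell genes were more or less widespread than others.

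**Figure D2:**
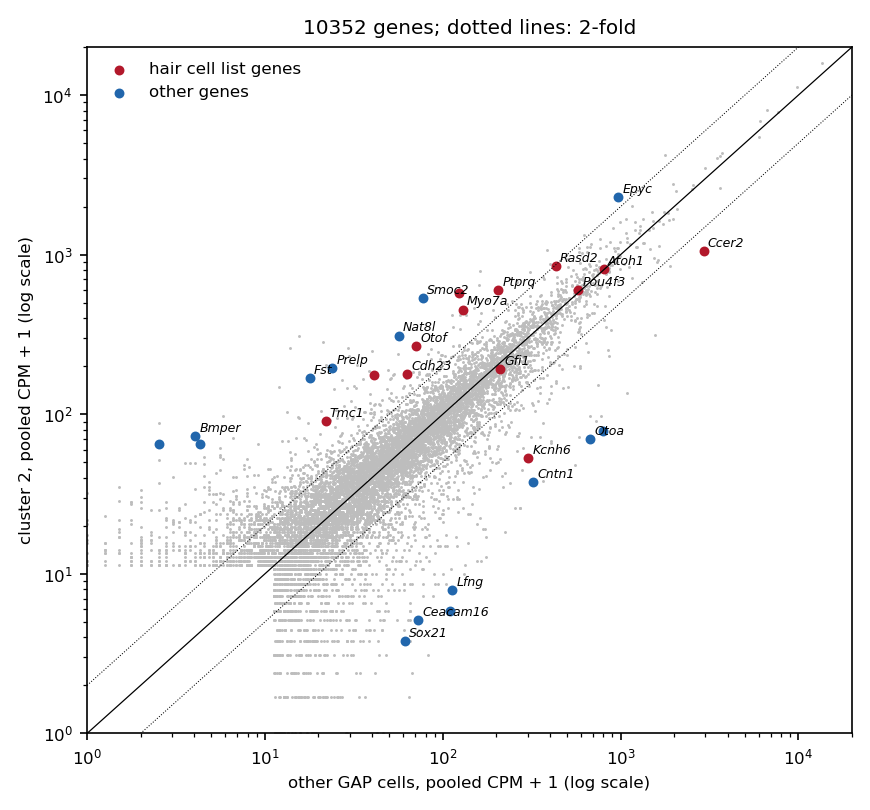
Pooled level of 10352 genes in cluster 2 (vertical, CPM + 1, log scale) against the other GAP cells (horizontal, CPM + 1, log scale), with hair cell list genes in red, other named genes in blue and 2-fold as dotted lines. Ptprq, Myo7a, Otof and Cdh23 lie above the upper dotted line together with Smoc2, Prelp and Fst, the GAP allele genes lie on the diagonal, and Ccer2 and Kcnh6 lie below the lower dotted line with Otoa and Lfng.

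Hair bundle genes made up the longest hair cell list. Of 35 measured members 18 passed 2-fold upwards and 3 downwards, their median log2 ratio was 1.09, and 24 members were highest in this cluster. Ptprq, a receptor phosphatase at the base of stereocilia, was found in 36 cells, with a median of 65.9 and a highest cell of 5422 CPM. It was at 598 against 204 CPM, a ratio of 2.94 (2.66 to 3.24), and had 0 UMIs in control cells. Cib2, a calcium-binding partner of the transduction channel, was more general, in 49 cells with a median of 333 and a highest of 1215 CPM, and a ratio of 2.34 (2.1 to 2.6). Myo15, the motor that carries cargo to stereocilia tips, was in 27 cells at 255 against 84.4 CPM, a ratio of 3.03 (2.6 to 3.52). The tip link was split: Cdh23, its upper part, was in 22 cells with a ratio of 2.86 (2.39 to 3.42), while Pcdh15, its lower part, was in 42 cells with a ratio of 0.937 (0.834 to 1.05). A UMI in all 51 cells was found for 1.85% of 9534 genes, and some hair cell genes were among them. Myo6, a motor at the stereocilia base, was in all 51 cells, from 92 to 3159.9 CPM, and at about the same level outside the cluster, with a ratio of 1.11 (1.05 to 1.17). Triobp, which bundles actin in the rootlets, was also in all 51 cells with a ratio of 1.51 (1.41 to 1.61). Named after their values were seen, the actin bundler Espn was in 43 cells with a ratio of 2.15 (1.84 to 2.5), Loxhd1, a stereocilia protein, in 18 cells with a ratio of 4.99 (3.56 to 7.06), and Lhfpl5, a transduction channel partner, in 8 cells. The Lhfpl5 ratio was 9.87 within letter C and 0.494 within letter D. Ush1g and Tmc2 were listed at 0 in the cluster and in the other GAP cells alike.

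Synapse genes followed the same pattern with 1 large exception. Of 15 measured, 8 were 2-fold or more above the other GAP cells and 1 was below, and the median log2 ratio was 1.13. Pclo, a scaffold of the presynaptic active zone, was found in 48 cells, with a median of 405 and a highest of 3130.4 CPM, and was at 669 against 260.1 CPM, a ratio of 2.57 (2.35 to 2.81). Cacna1d, the pore of the presynaptic calcium channel, was in 28 cells with a ratio of 2.63 (2.08 to 3.32). Slc17a8, which loads glutamate into synaptic vesicles, was in 10 cells at 29.8 against 6.88 CPM, a ratio of 4.32 (2.61 to 7.28). Vamp2, a general vesicle SNARE, was in 40 cells with a ratio of 0.701 (0.582 to 0.839). Syt1 was listed at 0 in the cluster and had 2 cells with a UMI among the other GAP cells.

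The exception was Ccer2, a coiled-coil protein gene on the synapse list. All 51 cells had it, from 78.3 through a median of 554 to 6364 CPM. Pooled it was at 1048 CPM in the cluster against 2929 CPM in the other GAP cells, 2.79-fold lower (2.65 to 2.95), and against 4659 CPM in cluster 1, 4.45-fold lower (4.21 to 4.7). With 1.25 CPM in control cells, Ccer2 was a gene of GAP cells in general and this cluster held the second highest level of the 9. The 250 bases before the start sites of Ccer2 and of Rasd2 are shown because these genes were detected in 51 and 50 cells and differed from the other GAP cells in opposite directions. They are from RefSeq (GRCm38.p6), for Ccer2 at chr7:28755924-28756173 and for Rasd2 at chr8:75213694-75213943, both on the plus strand, and capitals mark CAGCTG, an E-box that basic helix-loop-helix factors such as Atoh1 can bind.
Ccer2: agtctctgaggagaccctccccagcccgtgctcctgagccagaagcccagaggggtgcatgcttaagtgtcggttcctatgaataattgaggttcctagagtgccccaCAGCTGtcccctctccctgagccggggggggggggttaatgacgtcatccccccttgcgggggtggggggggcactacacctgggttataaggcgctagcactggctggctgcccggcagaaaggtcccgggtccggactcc
Rasd2: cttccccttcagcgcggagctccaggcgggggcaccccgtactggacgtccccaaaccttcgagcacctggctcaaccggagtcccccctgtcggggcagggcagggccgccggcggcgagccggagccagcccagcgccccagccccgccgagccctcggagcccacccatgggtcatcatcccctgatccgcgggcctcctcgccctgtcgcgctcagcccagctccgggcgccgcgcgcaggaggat
Ccer2 held 1 CAGCTG and Rasd2 none. Searched on both strands in windows of this length, CAGCTG was present before 12.8% of 27025 genes in the table, 11.1% of the 7912 measured genes that have a sequence there, 13.3% of the 653 of these at 2-fold higher and 6 of 30 hair bundle genes (20%). CAGATG, another E-box, was before 14.5%, 9.10%, 11.03% and 6.67% of the same sets. A match here is a description of letters and not a bound site, and 3 of the 4 markers had an entry.

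Calcium handling genes had 5 of 10 measured members at 2-fold higher, 1 lower and a median log2 ratio of 0.81. Pcp4, which regulates calcium signalling, was in 27 cells with a median of 44.6 and a highest of 3353 CPM, and a ratio of 4.66 (4.16 to 5.22). Cabp2, which tunes the presynaptic calcium channel, was in 28 cells with a ratio of 4.38 (3.57 to 5.37), and the calcium buffer Pvalb in 16 cells with a ratio of 2.48 (2.04 to 3.002). The plasma membrane pumps Atp2b1 and Atp2b2 stayed under 2-fold, with ratios of 1.29 and 0.91. Calb1, Ocm and Cabp1 were listed at 0, in the cluster and in the other GAP cells.

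Potassium channel and receptor genes went both ways, with 3 of 9 measured at 2-fold higher, 3 lower and a median log2 ratio of 0.63. On the high side were Kcna10, a voltage-gated potassium channel, in 17 cells with a ratio of 3.1 (2.47 to 3.89) and Chrna9, the acetylcholine receptor subunit that receives efferent input, in 12 cells with a ratio of 5.01 (3.2 to 7.96). On the low side Kcnh6, an erg-type potassium channel, was in 22 cells with a median of 0 and a highest of 602 CPM, 5.8-fold lower at 51.9 against 301 CPM (4.59 to 7.42). Its level was 101.4 CPM in letter C and 19.5 in letter D of the cluster. P2rx2, an ATP-gated channel, was in 34 cells and 4.18-fold lower (3.48 to 5.05), at 87.2 against 364 CPM. P2rx2 was also present at 612 CPM in control cells, whereas Kcnh6 had 1 control cell with a UMI.

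Inner and outer hair cell genes are short lists that went different ways. Of 7 inner hair cell genes measured 4 passed 2-fold upwards and 1 downwards, and the median log2 ratio was 1.88. Of the 4, Cabp2 and Atp2a3 are also on the calcium list and Slc17a8 on the synapse list. The inner list is therefore not separate from those lists. Of 6 outer hair cell genes 1 was higher and 2 were lower, with a median of -0.62. Atp2a3, a calcium pump of the endoplasmic reticulum, was at 75.5 against 3.06 CPM, a ratio of 24.7 (13.6 to 49.2), in 11 cells of which 5 held 91.7% of the UMIs. Brip1, a DNA helicase gene on the inner list, was in 33 cells with a median of 57.8 and a highest of 1693 CPM, and a ratio of 3.7 (3.27 to 4.2). Calb2, a calcium buffer, had 4 UMIs in 2 cells and was 8.2-fold lower (3.09 to 30.7), and Fgf8 was listed at 0. On the outer list Bcl11b, a transcription factor, was at 33.9 against 7.65 CPM but in 6 cells only, and Ikzf2, which maintains outer hair cell identity, was at 15.2 against 21.2 CPM, a ratio of 0.72 (0.428 to 1.16). Slc26a5, the outer hair cell motor prestin, was listed at 0 in the cluster and had a UMI in 2 of the other GAP cells. No test of the difference between the lists was made.

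Hair cell fate genes as a list were close to the other GAP cells. Of 15 measured 3 passed 2-fold upwards and 1 downwards, and the median log2 ratio was 0.11. The 15 include Atoh1, Gfi1 and Pou4f3, which the GAP allele carries and which were themselves near the other GAP cells. The list without them was not counted. Rbm24, an RNA-binding protein of hair cells, was in 21 cells at 177.9 against 52 CPM, a ratio of 3.42 (2.83 to 4.13), with 0 UMIs in control cells. Eya1, a cofactor of early ear development, was 2.28-fold lower (2.05 to 2.54) and found in 48 cells. Jag2, a Notch ligand of nascent hair cells, was at 189.7 against 175.4 CPM, and its level was 304 CPM in letter C and 114.6 CPM in letter D.

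In the number of hair cell genes per cell the cluster differed from its neighbours at the top rather than in the middle. Of 78 genes on the lists for fate, bundle and synapse, without the GAP allele genes, a cell thinned to 8000 UMIs had a UMI of 11 to 41, with a median of 18 and quartiles of 15 and 25.5. Cells of cluster 1 had 10 to 31 with a median of 19 and quartiles of 17 and 22.75, and all other GAP cells 7 to 40 with a median of 17. Control cells had 5 to 16 with a median of 10. Without thinning the cluster had 17 to 57 with a median of 27. The count of 40 among the other GAP cells was reached only by cells without a cluster.

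**Figure D3:**
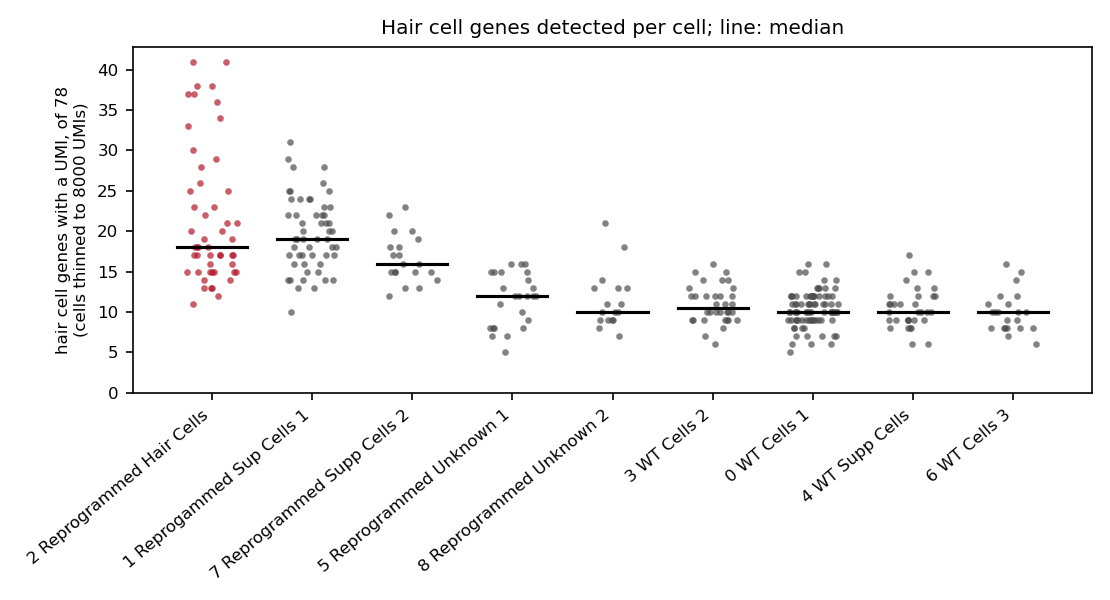
Number of hair cell genes with a UMI (vertical, of 78, every cell thinned to 8000 UMIs) for each cell of the 9 clusters (points; lines are medians). The median of cluster 2 is 18 against 19 in cluster 1, and its cells reach 41 where those of cluster 1 reach 31.

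The largest ratios to the other GAP cells under the naming rule belonged to genes outside the hair cell lists. The 40 named here had the highest ratios among genes with a UMI in 10 or more cells. The choice also asked that no cell held over 1 part in 3 of the UMIs and that both letters went the same way. None of the 40 was on a hair cell list. These lists held 86 of the 9534 genes at 10 CPM or more in the cluster, a share at which 40 genes may hold none. Atp2a3 of the inner hair cell list was outside this choice, with 49.5% of its UMIs in 1 cell. The ratios of the 40 ran from 5.29 to 42.1. The 40 were found in 10 to 45 cells with a median of 16, only 8 of them in 26 cells or more. Several encode secreted or matrix proteins. Smoc2, a calcium-binding matricellular protein (chr17:14279506-14404790), was the most widespread, in 45 cells with a median of 239 and a highest of 3068 CPM. It was at 532 against 76.2 CPM, a ratio of 6.97 (6.09 to 7.997), and at 10.7 CPM in control cells. Smoc2 was high in both letters, with 411 CPM under C against 611 under D. Prelp, a leucine-rich repeat proteoglycan, was in 36 cells with a ratio of 8.48 (6.66 to 10.9). Fbln2, a fibulin, was in 25 cells with a ratio of 9.1, Fst, the activin inhibitor follistatin, in 23 with 9.91, and Bmper, a regulator of bone morphogenetic proteins, in 18 with 23.5. The highest ratio was that of Apoc3, an apolipoprotein, at 64.4 against 1.53 CPM (42.1, 18.6 to 117.6), in 10 cells of which 5 held 86% of the UMIs. Apoa4, another apolipoprotein, was in 25 cells with a ratio of 13.3.

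Signalling and cell surface genes were also among them. Cmklr1, the chemerin receptor, was in 38 cells, with a median of 169.5 and a highest of 809 CPM, and a ratio of 6.36 (5.24 to 7.74). Rasgrf1, an exchange factor for Ras, was in 12 cells with a ratio of 19.4. Gxylt2, a xylosyltransferase, was in 32 cells at 203 CPM in letter C and 203 in letter D, with a ratio of 6.31 (5.11 to 7.84). Hif3a, a hypoxia-inducible factor, was in 33 cells with a ratio of 6.11, and Nat8l, the enzyme that makes N-acetylaspartate, in 33 with 5.58. Among genes at 4-fold or more, those in most cells were Smoc2 and Rprm, a cell cycle regulator, which was in 44 cells with a median of 326 and a highest of 1991 CPM. Rprm was at 639.6 against 158.6 CPM, a ratio of 4.03 (3.64 to 4.47), and at 13.7 CPM in control cells. Dnajb1, a heat shock cochaperone, was in 38 cells with a ratio of 4.84 (4.38 to 5.34), a median of 72.9 and a highest of 4985 CPM. Enpp1, an ectonucleotidase, was in 31 cells with a ratio of 14.1, but 1 cell held 34.6% of its UMIs.

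Some of these genes were also high in a cluster of mostly control cells. For 15 of the 40 the next highest cluster was cluster 3, named WT Cells 2, which holds 29 control and 5 GAP cells, and for 3 it was cluster 1. Cluster 2 was the highest of the 9 for 28 of the 40, and 6 were higher in cluster 3 than in cluster 2. The 40 were chosen for a high ratio to the other GAP cells, which hold all 54 cells of cluster 1 but only 5 of cluster 3. That choice works against genes high in cluster 1, so these counts follow in part from it. They do not show which cluster is more alike, and the next highest cluster was not counted over all genes. Fst was at 166.8 CPM in cluster 2, 524 in cluster 3 and 9.02 in cluster 1. Prelp was at 195, 201 and 23.7 CPM in the same order, and Rassf2, a Ras association domain protein, at 163.4, 201 and 18. Smoc2 went the other way, at 532 CPM in cluster 2, 127.9 in cluster 1 and 55.3 in cluster 3. Across 9534 genes at 10 CPM or more in cluster 2, its profile was most alike to that of cluster 1 (Pearson's r 0.854, Spearman's rho 0.873 on the log scale) and next to that of cluster 3 (0.750 and 0.788). These correlations are across genes, which are not replicates.

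Genes that set the cluster apart from every other cluster were few once spread over cells was asked for. Of the 9534 genes, 278 (2.92%) were at least 2-fold higher than in each of the other 8 clusters. Hair cell lists held 30 of these 278, and 86 of all 9534. A UMI was found in 26 cells or more for 37 of the 278. Among the 37 the hair cell list genes were Pclo, Myo7a, Ptprq, Brip1, Myo15, Cabp2 and Pcp4. The share of list genes among all genes in 26 cells or more was not counted. The others in most cells, named after their values were seen, were Fam168a in 48 cells, Smoc2 in 45, Rprm in 44, Slc43a2, an amino acid transporter, in 44, and Ubash3b, a tyrosine phosphatase, in 43. The margin over the next cluster was 4.16-fold for Smoc2, 4.56-fold for Cmklr1, 3.52-fold for Myo7a and 2.21-fold for Pclo.

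**Figure D4:**
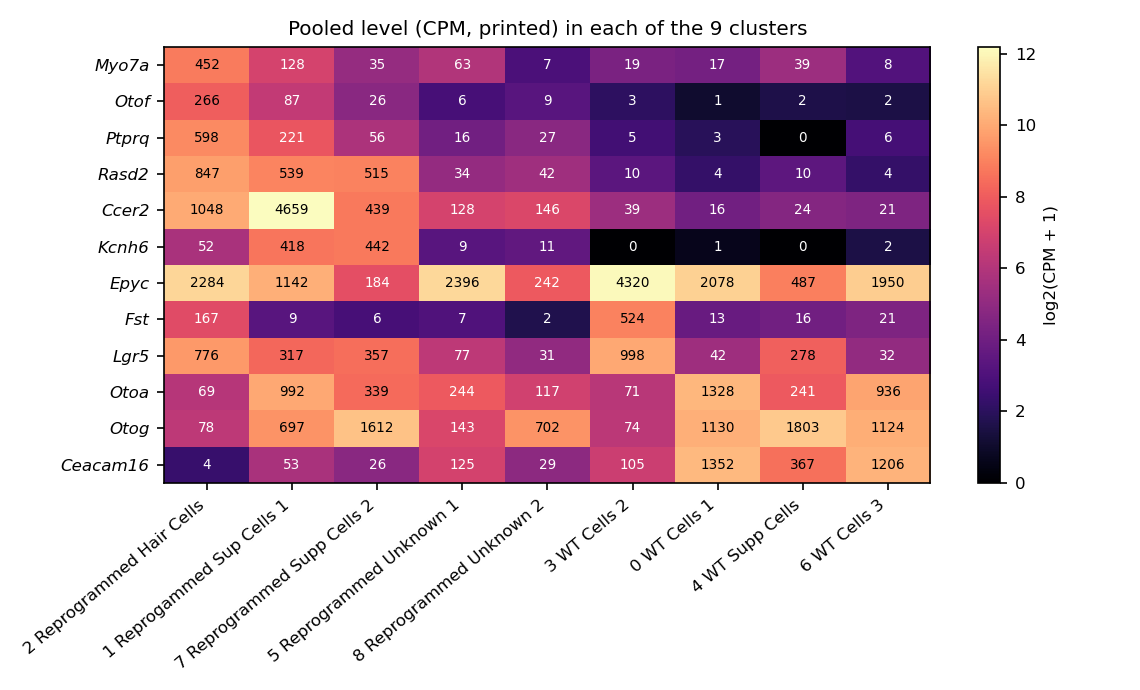
Pooled level (printed as CPM; colour is log2(CPM + 1)) of 12 genes (rows) in the 9 clusters (columns, with the authors' names). Myo7a, Otof, Ptprq and Rasd2 are highest in cluster 2, Ccer2 in cluster 1, and Epyc, Fst and Lgr5 in cluster 3, while Otoa and Otog are low in clusters 2 and 3.

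Genes of the resident non-sensory cells divided into those kept and those low. Of 17 supporting cell genes measured 0 passed 2-fold upwards and 4 downwards, the median log2 ratio was 0.03, and the summed level per cell was 4830 to 35532 CPM. Sox10, a transcription factor of the otic epithelium, was in all 51 cells with a ratio of 0.92 (0.855 to 0.989), and the adhesion gene Cdh1 was in all 51 with a ratio of 1.13. From 3 other lists, Epyc, Lgr5 and Gata3 had higher pooled levels. Epyc, a matrix proteoglycan on the inner sulcus and tectorial membrane list (chr10:97644068-97682454), was in 50 cells, with a median of 632 and a highest of 9679 CPM. It was at 2284 against 969 CPM, a ratio of 2.36 (2.25 to 2.47), but the ratio was 1.11 within letter C and 3.82 within letter D, and control cells had 2503 CPM. Lgr5, a Wnt-linked receptor on the pillar and Deiters cell list, of which 2 of 6 measured were higher and 1 lower, was in 45 cells with a median of 425 and a highest of 5472 CPM, and a ratio of 2.51 (2.31 to 2.73). Gata3, a transcription factor on the Hensen, Claudius and outer sulcus list, with 3 of 8 higher and 2 lower, had a ratio of 1.86 (1.74 to 1.996), 0.926 within letter C and 2.75 within letter D.

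Of the inner sulcus and tectorial membrane genes, 2 of 10 measured were at 2-fold higher and 6 lower. The median log2 ratio of these genes was -2.10. The lower members named here were chosen after their values were seen. Otoa, which anchors the tectorial membrane, was at 69.2 CPM in the cluster, 671 in the other GAP cells and 763 in control cells, a ratio of 0.103 (0.0837 to 0.126). Otog, a tectorial membrane glycoprotein, was at 77.5 against 794 CPM, a ratio of 0.0976 (0.0801 to 0.118). Both transcripts were still found in most cells, Otoa in 41 and Otog in 43. Ceacam16, another tectorial membrane protein, was at 4.15 against 71.7 CPM with 834 CPM in control cells, and Tectb, a tectorin, at 13.8 against 102.2 CPM with 9.5 in control cells. The adhesion gene Cntn1 had a ratio of 0.115 (0.0853 to 0.151), and Slc1a3, a glutamate transporter of supporting cells, of 0.0982 (0.0684 to 0.137). Cluster 3 was low in Otoa and Otog as well, at 71.3 and 74.5 CPM.

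The genes with the lowest ratios were nearly absent from the cluster. Of the 15 that the rule names, 4 had 0 UMIs in its cells and the others were in at most 6. Slc22a3, an organic cation transporter, had 0 UMIs against 44.9 CPM in 30 of the other GAP cells, at least 21.6-fold lower with 3 counts over the cluster as the floor. The transcription factor Ebf3 was at least 20.01-fold lower by the same floor. Car14, a membrane carbonic anhydrase, was at 4.85 against 108.4 CPM, 22.4-fold lower (10.8 to 56). Sox21, a transcription factor of supporting cells, had 4 UMIs and was 21.7-fold lower (8.38 to 80.4), and Sox2, its relative in supporting cell progenitors, was listed at 0 against 11 CPM in 24 of the other GAP cells. Dkk3, Icam1, Apod, Mmp2, Krt4, Slc43a3, Ednrb, Agr3 and Tmem200a were each in 1 to 4 cells, and Ccdc80 and Prex2 in 0.

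Notch pathway genes, which keep supporting cells from becoming hair cells, had 2 of 16 measured members at 2-fold higher, 6 lower and a median log2 ratio of -0.18. Notch1 had a ratio of 0.928 (0.849 to 1.01) and was in 47 cells. Named after their values were seen, the receptor Notch2 was at 106.6 against 257 CPM and the ligand Jag1 at 72 against 264 CPM. Lfng, a glycosyltransferase that modifies Notch, was at 6.92 against 111.7 CPM, a ratio of 0.062 (0.0295 to 0.115), while its relative Mfng was in 45 cells with a ratio of 1.36. Of the Hey targets, Hey1 was at 61.6 against 181 CPM, Hey2 at 84.5 against 36.7 and Heyl at 497 against 487. Heyl was in 50 cells of the cluster, and at 64.5 CPM in control cells.

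Against cluster 1 alone (Reprogammed Sup Cells 1, spelled as deposited, 54 GAP cells), 1261 of 10263 genes (12.3%) were at least 2-fold higher in cluster 2 and 984 (9.59%) lower. Hair bundle genes had 16 of 34 at 2-fold higher and 2 lower, and synapse genes 8 of 15 and 1. Myo7a had a ratio of 3.52 (3.02 to 4.11), Cdh23 of 5.44 (4.08 to 7.37) and Cabp2 of 5.76 (4.28 to 7.87). Fate genes, with the GAP allele genes among them, had 4 of 15 at 2-fold higher and 1 lower. The sulcus list, which was low against all other GAP cells together, had a median of 0.09 here, with 2 of 9 higher and 4 lower. Hensen, Claudius and outer sulcus genes had 5 of 8 at 2-fold higher and none lower.

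Within the cluster, bundle genes as a group were spread over cells about as unevenly as other genes of their level, and some were far more concentrated. Of 2334 genes at 100 CPM or more, the median gene had 30.6% of its UMIs in its 5 highest cells. The 15 hair bundle genes at that level ranged from 27.7% to 75.1% with a median of 35.99%. For 10 of the hair cell genes named above, the 50 places among the 5 highest cells were held by 18 cells, and 7 cells that appeared for 3 or more genes held 35 of the places. Of those 7 cells, 5 were of letter C and 2 of letter D, and they held 26386 to 41457 UMIs. The most even genes were mitochondrial and nuclear RNAs, with 13.5% in 5 cells for mt-Rnr1 and 16.7% for Malat1.

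The main axis of difference between cells had several hair cell genes at 1 end. The first principal component over 4497 genes, with a minimum of 50 CPM, took up 6.24% of the variance. Among the 25 genes of largest weight at 1 end were Epyc, Scd1, Gata3, Igfbp5, Clu, Gjb2, Dbi, Map1b, Cdkn1a and Dnajb1, and among the 25 at the other Ptprq, Pcp4, Otof, Myo15, Cabp2, Cdh23 and Pou4f3. The rank correlation of this axis over the 51 cells was -0.64 with the number of hair cell genes and -0.16 with UMIs per cell. Ptprq, Otof, Myo15 and Cdh23 are both in that number and in the axis, so part of the -0.64 is built in. The letters stood apart on the axis, with a median position of -0.06 for C and 0.10 for D. The part of the letter in this axis was not tested. Correlations between cells given here describe 51 cells that share libraries, letters and depth, carry no p-value, and were picked from 210 gene pairs after their values were seen. Ptprq and Myo15 rose and fell together (Spearman's rho 0.66), as did Otof and Loxhd1 (0.64), while Pcp4 and Epyc ran opposite (-0.63) and Epyc and Fst together (0.64). Otof and Tmc1 were both present in 15 cells and both without a UMI in 21.

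The summed level of the 78 hair cell genes ran from 2484 to 30386 CPM per cell with a median of 7855, and quartiles of 5595 and 14053. Cluster 1 had a higher median of 12868 CPM and a highest cell of 19825, and the other GAP cells a median of 7298. Ccer2, 4.45-fold lower here than in cluster 1, is part of the sum. Over 51 cells, the sum of the 78 genes was related to Pou4f3 (Pearson's r 0.67, Spearman's rho 0.50). This sum was not visibly related to Atoh1 (-0.11 and -0.02) or Gfi1 (-0.07 and -0.11). Against the summed level of the supporting cell list the sum of the 78 genes ran opposite (-0.48 and -0.47). Between this sum and UMIs per cell r was 0.30 and rho 0.23. The part of depth in these values was not tested.

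**Figure D5:**
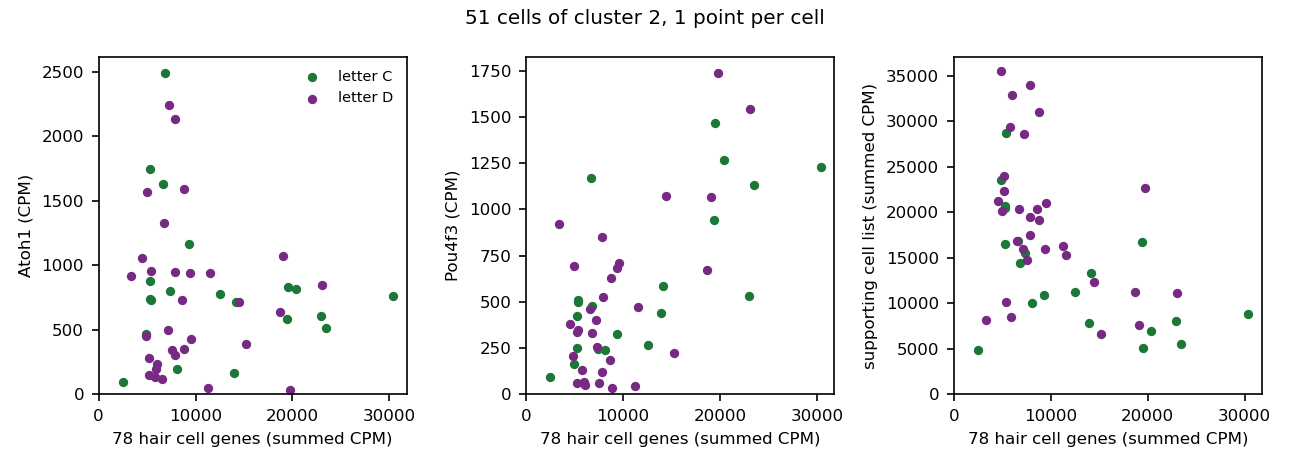
Level of Atoh1 (left, CPM), Pou4f3 (middle, CPM) and the supporting cell list (right, summed CPM) against the summed level of 78 hair cell genes (horizontal, CPM) in the 51 cells of cluster 2, with letters C and D in colour. Spearman's rho is -0.02, 0.50 and -0.47, and cells of both letters lie at both ends.

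The letters of the cluster differed from each other in many genes. Of 10531 genes at 10 CPM or more in either, 1612 (15.3%) were at least 2-fold higher in letter C and 1499 (14.2%) in letter D, with median UMIs per cell of 28205 and 28271 and pooled totals of 572252 UMIs in 20 cells and 872287 in 31. Otof had 502 CPM under C against 111.2 under D. Cdh23 was at 299 and 98.6 CPM in the same order. Epyc (1213 and 2988 CPM), Cdkn1a, a cell cycle inhibitor under p53 (143.3 and 541), and Prelp (99.6 and 257) were higher in D. Each of the 4 markers was above the other GAP cells within both letters, with ratios of 5.83 and 2.42 for Otof, 6.58 and 2.69 for Tmc1, 2.99 and 4.26 for Myo7a, and 2.27 and 1.72 for Rasd2. What the letters stand for is not stated in the labels.

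Defining markers of several other cell types were listed at 0, while other members of their lists were present, and their part in the values above was not tested. Of 18 neuron genes 8 were measured, 4 at 2-fold higher and 1 lower, and Nefl, Tubb3, Gap43, Elavl4, Prph and Uchl1 were listed at 0. The median log2 ratio of the list was 1.45, but -0.24 without letter C. Against cluster 1 alone it was 2.34, with 5 of 8 higher and 0 lower. The summed neuron list was 46 to 4551 CPM per cell, against 0 to 5739 in the other GAP cells, and its members with most UMIs were Miat, at 486 against 535 CPM, and Runx1t1, at 289 against 182, which GAP cells in general carried. Of 8 fibroblast genes 4 were measured, 3 at 2-fold higher and 1 lower, with a summed level of 0 to 1747 CPM per cell against 0 to 3618 in the other GAP cells, and Col3a1 and Coch listed at 0. Lum, a proteoglycan, was at 183 against 67.3 CPM, 54.2 CPM in letter C and 268 in letter D, and at 321 CPM in control cells. Of 10 Schwann and satellite glia genes 6 were measured, 0 higher and 3 lower, with Mag at 0 and a summed level of 105.1 to 2170 CPM. Endothelial genes had 1 of 3 measured higher and 1 lower, with Cdh5 and Cldn5 at 0, and leukocyte genes 1 of 1 higher, with Cd74 and Cx3cr1 at 0. Their summed levels were 0 in the median cell and at most 2658 and 365 CPM. Erythroid genes had 3 of 3 measured lower, at 0 to 109.4 CPM per cell against up to 24039 in the other GAP cells. The mucosal list had 5 of 9 measured higher and 4 lower, and its median log2 ratio was 1.01 with the mucosal cell and -2.31 without it. Stria vascularis genes had 0 of 6 higher and 2 lower, cilia genes 0 of 11 and 2, and genes of other Atoh1 lineages 3 of 9 and 4.

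Housekeeping groups stayed near the other GAP cells. None of 17 ribosomal protein genes, 17 oxidative phosphorylation genes or 7 mitochondrially encoded genes measured, and none of 7 cholesterol synthesis genes, was at 2-fold in either direction, with median log2 ratios of 0.01, 0.21, 0.28 and 0.50. Immediate early genes had 0 of 14 at 2-fold higher and 1 lower, with a summed level of 389 to 38949 CPM per cell and a median of 1720.4 against 4247 in the other GAP cells, and Jun was at 1842 against 1748 CPM. Unfolded protein response genes had 2 of 9 higher and none lower. The p53 and apoptosis list had 3 of 10 measured members at 2-fold higher and 2 lower. Ccng1, a p53 target, was in 34 cells with a ratio of 2.18 (1.83 to 2.6), and Cdkn1a had a ratio of 2.38 (2.12 to 2.67) that was 0.826 within letter C and 3.78 within letter D. Cell cycle genes had 1 of 8 higher and 4 lower, and Ccnd1, a cyclin of entry into division, was 4.34-fold lower (3.32 to 5.78) at 40.2 against 174.4 CPM.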

How the data were processed

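Single cochlear cells of 1 control and 1 GAP sample were analysed from the deposited table of UMI counts per gene and cell (48440 genes, 19416 with a UMI) and from the authors' deposited cluster assignments, which cover 341 of the 360 cells and leave 19 without a cluster. STAR, HTSeq and mm10 are named per the submitters' processing notes, and their versions, the annotation, strand setting, UMI collapsing and doublet removal were not given in the sources used here. No deposited column of cells was left unused and no doublet caller was run.

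The counts of each set of cells were pooled and scaled to the UMIs of that set (CPM), with Python 3.11.15, numpy 2.4.6, scipy 1.17.1 and pandas 2.3.3. A gene was measured at 10 CPM or more in either set, and a 2-fold difference was counted on the ratio of pooled CPM. Median log2 ratios, the ranking of ratios and the named genes followed under alternatives used log2(CPM + 1). CPM intervals are exact Poisson, ratios exact conditional binomial and shares Clopper-Pearson, all at 95%, covering counting error only. Floors are 3 counts over a set. With 1 sample a genotype no test across samples exists. Shares of cells were compared after thinning to 8000 UMIs. Gene positions are from GENCODE M21.

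Of 383 genes on 30 lists, 382 were in the table. A gene can be on more than 1 list. The members and lists were chosen with earlier results of these data known. Genes were named by a rule: the markers, the GAP genes, Fbxo2 and Epcam, the 20 highest levels, the 40 highest and 15 lowest ratios with 10 or more cells holding a UMI in the higher set, no cell holding over 1 part in 3 of its UMIs and the same direction in both letters, the 15 most widespread genes at 4-fold or more, the 15 most and 10 least concentrated genes at 100 CPM or more, the 4 members (10 for hair cell, synapse, calcium and potassium lists) of each list with most UMIs, and defining members at 0. Alternatives were a mean over cells, TMM factors (edgeR 4.0.16), thinning, filters, a pseudocount of 10 CPM, other reference cells, and leaving out a letter, the 5 deepest cells or the mucosal cell. Some genes are not reported here. On simulated counts the ratio intervals were tested against known folds.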

Additional observations from a re-analysis of the deposited data

How the results depend on the processing

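Of the named genes at 2-fold or more against the other GAP cells, 9 turned direction without letter C, 8 without letter D, 3 after thinning to 8000 UMIs, 3 without the mucosal cell (an alternative chosen after seeing the data) and 1 without the 5 deepest cells. None did under the mean over cells or either other set of reference cells. The filters leave the ratio of each gene unchanged, and a pseudocount added to both levels cannot turn its direction. The TMM factors, 1.02 and 0.979, were too near 1 to turn a gene at 2-fold. No turn was therefore possible under those settings, and they say nothing on direction. The genes named as the 40 highest and 15 lowest ratios were chosen with the same direction in both letters. Leaving out a letter could not turn them, so the 9 and 8 come from the other named genes. The counts of genes at 2-fold higher and lower were 224 and 405 with a filter of 50 CPM, 3516 and 4347 with no filter, and 394 and 629 with a pseudocount of 10 CPM, which change how many low genes are tested or pass. Median log2 ratios of lists moved beyond their spread as follows. With the 50 CPM filter they were 0.63 for bundle, 1.24 for calcium and -0.15 for outer hair cell genes, and with no filter 0.87 for synapse and 0.31 for potassium genes. The synapse median was 0.85 with the pseudocount of 10 CPM, 1.38 against reprogrammed clusters only and 1.47 against cells with a cluster only, and the potassium median 0.90 against reprogrammed clusters only. Without letter C the medians were -0.10 for fate, 0.67 for bundle and 2.68 for inner hair cell genes, -0.24 for the neuron list and -2.95 for the mucosal list, and Reg3g was at -2.32. Without letter D they were 1.43 for calcium, -0.87 for outer hair cell genes and -0.27 for the fibroblast list, and the log2 ratios of Cdkn1a (-0.27), Lum (-0.19), Col1a2 (-0.35), Pecam1 (-1.25) and Ptprc (-1.18) were below 0. Without the mucosal cell the mucosal median was -2.31, Muc5b was at -0.43, Reg3g at -0.99 and Muc16 at -2.45. The cause of these moves was not tested beyond the cells or genes left out.

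No paired analysis was possible because the replicate numbers only name cells in accession order and each genotype is 1 sample. Depth limits genes with few UMIs: by the floor of 3 counts, 0 of 51 cells allows up to 5.88% of cells with a UMI, which does not limit the share of cells expressing a gene, and 3 counts in the cluster are 2.08 CPM.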
